A study of Mus musculus with 2 samples.

Results

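Olfactory receptor genes of mouse chromosome 9 were examined in a map of CTCF binding from newborn midbrain. They were chosen by name and place, with earlier results of these data known. The set was every protein-coding gene of GENCODE vM21 called Olfr followed by a number on chromosome 9 of mm10. This gave 129 of 21755 protein-coding genes on chromosomes 1 to 19 and X. Genes less than 500 kb apart were joined, which placed all 129 in 2 clusters. In the main peak list, thresholded for repeatability, no CTCF peak lay inside the first cluster, of 36 genes, and 9 lay inside the second, of 93 genes. In that list 1 of the 129 genes, Olfr971, had a peak within 1 kb of an annotated start, where 43.4% of all protein-coding genes had one.

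CTCF was measured by chromatin immunoprecipitation and sequencing (ChIP-seq) in bulk midbrain tissue of B6NCrl mice, an inbred strain, on the day of birth (postnatal day 0). The labels give no mutation or treatment, and sex was not collected. There was 1 group of 2 replicates, and both carry a single biosample record and a single donor record, so how far they are independent animals or pools is not given in the sources used here. With no second group there was no test between conditions, and every value below is a description. No RNA was measured, so the tissue could not be checked against marker genes.

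Olfactory receptors are odour-binding G protein-coupled receptors of the sensory neurons in the nose. Their genes lie in large tandem arrays, and a mature olfactory neuron expresses a single receptor allele while the others are kept in silent chromatin. Most receptor genes have noncoding first exons, with the receptor itself encoded in a single exon further downstream. CTCF, an architectural protein with zinc fingers, recognises a long G-rich motif that has a direction. Cohesin loops often end at pairs of CTCF sites whose motifs point towards each other, and CTCF sites often lie at the borders of chromatin domains. Midbrain is not an olfactory sensory tissue, so the receptor arrays are seen here outside the cells that use them.

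The authors deposited 5 peak lists, and the main one used here, called optimal, had been thresholded by the irreproducible discovery rate (IDR), a measure of how well peak ranks repeat. It held 68603 peaks, 3976 of them on chromosome 9. A more stringent list, called conservative, held 65493. The list called on both replicates together (the pooled list) and the list of each replicate held 300000 each, and reached down to weak peaks. Each peak has a summit and a signal value, whose scale is not stated. In the optimal list the signal ran from 6.81 through a median of 76.5 to 691. Percentiles below are ranks of this signal among all optimal peaks. Read depth is unknown, so the lack of a peak in a list does not show that CTCF was absent.

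The sequences at the peaks of the second cluster are shown first, because their motifs and directions carry the description that follows. The capitals mark the 20 bases that matched a CTCF weight matrix learned from strong peaks of the even-numbered chromosomes, with 10 reference bases on each side. Each is written 5′ to 3′ in the G-rich direction of the motif and comes from GRCm38.p6, the sequence of mm10, as do the coordinates. Of the 9 peaks inside the cluster, 7 held a match no more than 50 bp from the summit, at a p of 1e-05 for each position.
12581 bp before Olfr874, plus strand, chr9:37732533-37732552: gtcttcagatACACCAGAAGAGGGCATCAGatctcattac
9137 bp before Olfr875, plus strand, chr9:37762727-37762746: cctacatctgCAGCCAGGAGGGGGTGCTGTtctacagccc
14162 bp after a start of Olfr878, minus strand, chr9:37932701-37932720: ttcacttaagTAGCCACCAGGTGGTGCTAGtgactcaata
6290 bp from a start of Olfr881, plus strand, chr9:37998765-37998784: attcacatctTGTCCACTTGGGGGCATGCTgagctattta
8710 bp before Olfr922, plus strand, chr9:38805899-38805918: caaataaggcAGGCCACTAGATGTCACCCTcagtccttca
2536 bp from a start of Olfr957, plus strand, chr9:39509171-39509190: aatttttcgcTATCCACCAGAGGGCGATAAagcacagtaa
In an intron of Olfr148, minus strand, chr9:39612164-39612183: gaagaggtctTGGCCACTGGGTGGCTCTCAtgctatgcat
Matches beside Olfr878, Olfr922 and Olfr957 also passed the stricter p of 1e-06.

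The first cluster ran over chr9:18751507-20336094, 1.58 Mb from Olfr24 to Olfr18. Its 36 genes, 22 on the plus strand and 14 on the minus strand, stood at 22.7 genes per Mb. Among them lay 13 models named as Olfr pseudogenes and 1 protein-coding gene of another family, Zfp317, a zinc finger gene. Neither the optimal nor the conservative list had a summit inside it. The pooled list had 5, the list of replicate 1 had 9 and that of replicate 2 had 14. The strongest signal among these was 9.99 in the pooled list, 6.9 in replicate 1 and 5.91 in replicate 2, beside medians of 10.4, 6.65 and 5.02 over each whole list.

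The second cluster ran over chr9:37708964-40190134, 2.48 Mb from Olfr160 to Olfr986. It held 93 genes, 64 on the plus strand and 29 on the minus strand, at 37.5 genes per Mb, with 26 Olfr pseudogene models among them. Its protein-coding genes of other families were Vwa5a, AW551984 and Tmem225. Inside it the optimal list had 9 summits, the conservative list 8, the pooled list 69, replicate 1 had 81 and replicate 2 had 90.

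**Figure D1:**
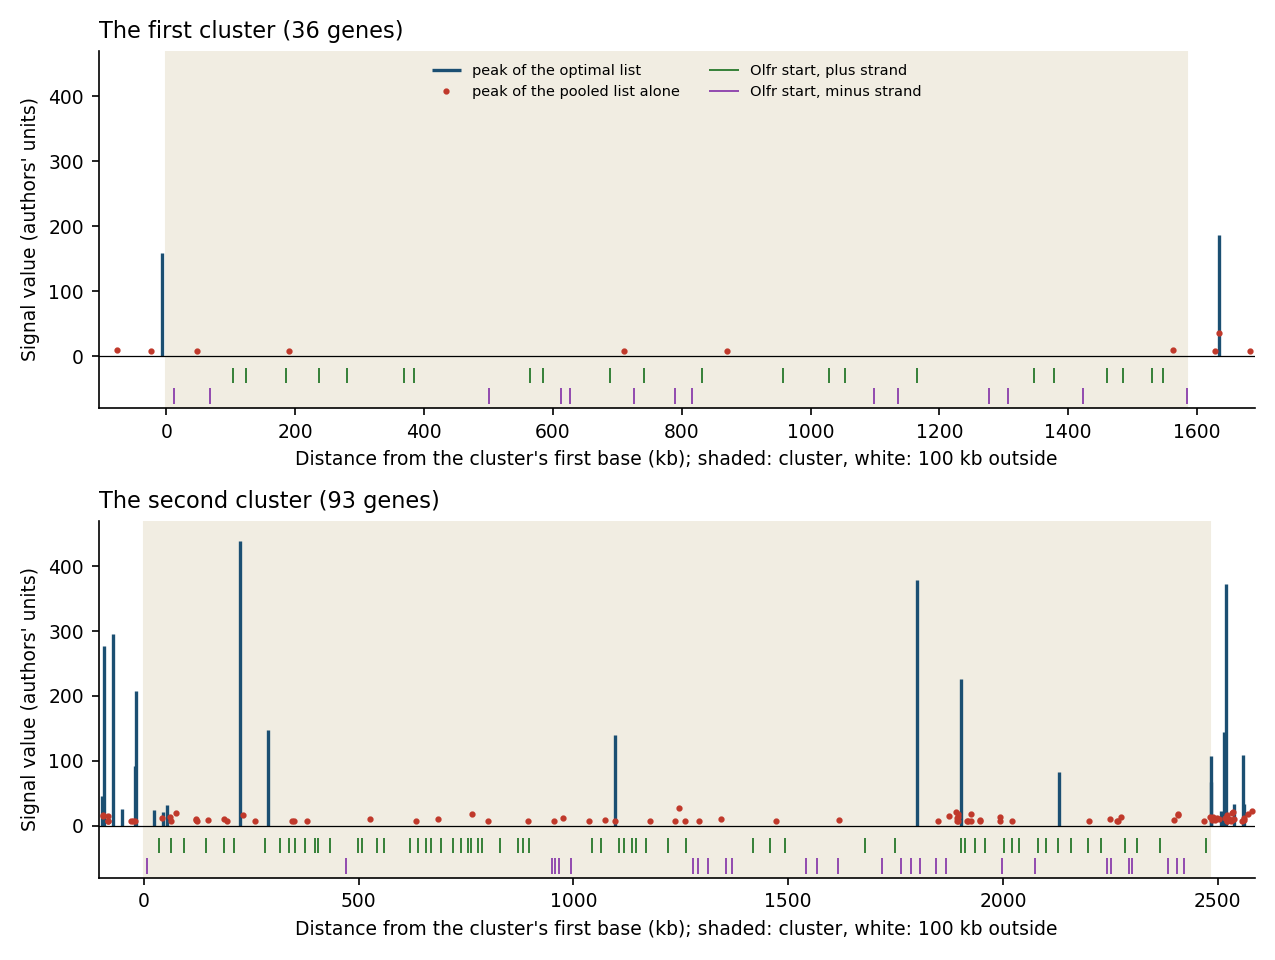
CTCF peaks along the 2 chromosome 9 clusters, with distance from the cluster's first base in kb on the x axis and the signal value on the y axis. Blue bars are optimal peaks, red points are peaks of the pooled list alone, and ticks below are Olfr gene starts by strand. The first cluster holds no blue bar and the second holds 9, of which the tallest reaches 439.

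Per length, the second cluster had 3.63 optimal summits per Mb and the first had 0, together 2.21 over 4.066 Mb. The rest of chromosome 9 had 33.9 per Mb, 3967 summits in 117.1 Mb, and the autosomes 28. The clusters of Olfr genes on other chromosomes, built by the same rule, had 8.87 per Mb, with 241 summits in 27.16 Mb. Of the 8 other clusters of at least 1 Mb, the density ran from 0 through a median of 5.56 to 20.3 per Mb. A chromosome 11 cluster of 29 genes, Olfr20 to Olfr412, was the one of these 8 with no summit, and 3 of the 8 lay below the second chromosome 9 cluster. Of the 52 other clusters of any length, some of them a single gene, 23 had no summit. Among these was a chromosome 2 cluster of 36 genes over 0.929 Mb, Olfr1275 to Olfr1318. Low density is thus shared with other receptor arrays, and those arrays differ widely.

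The pooled list gave the same order with higher numbers. It had 3.16 summits per Mb in the first cluster, 27.8 in the second, 34.2 in Olfr clusters of other chromosomes and 147 on the rest of chromosome 9. In replicate 1 the first cluster had 5.68 per Mb, the second 32.6 and the rest of the chromosome 145. In replicate 2 these were 8.84, 36.3 and 143. Both replicates therefore placed the first cluster lowest, and the second between it and the rest of the chromosome.

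**Figure D2:**
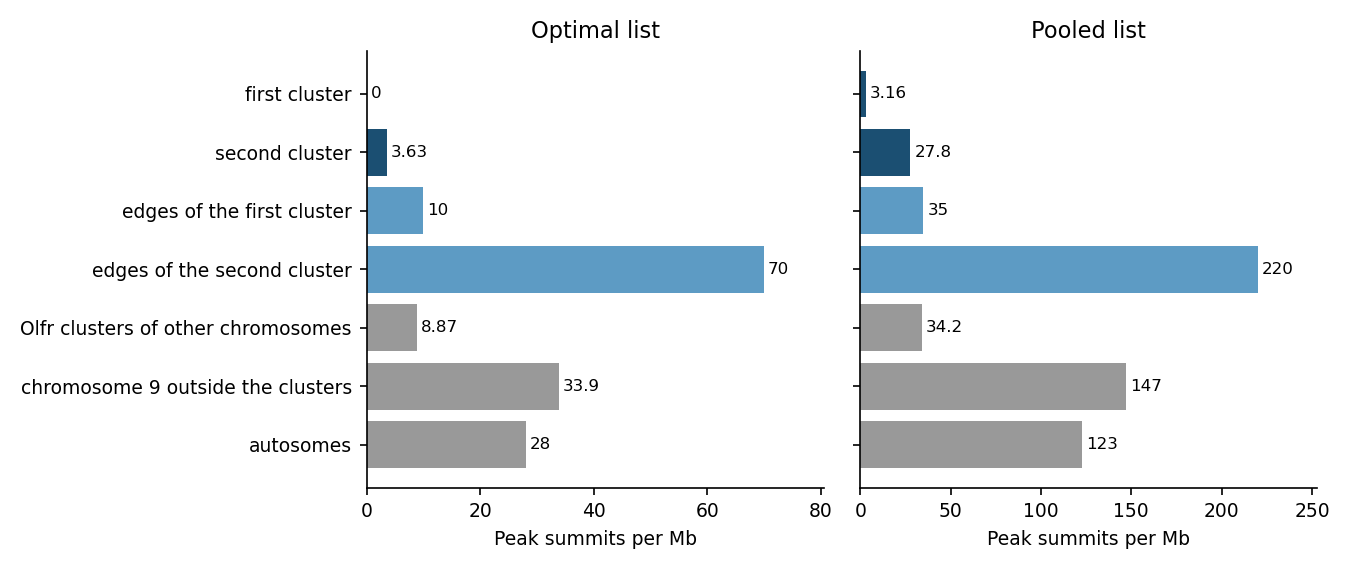
Peak summits per Mb in the optimal list (left) and the pooled list (right) for the clusters, their 100 kb edges, Olfr clusters of other chromosomes, chromosome 9 outside the clusters and the autosomes. Bars are single values with no replicate error; in the optimal list the first cluster is at 0, the second at 3.63 and the second cluster's edges at 70.0.

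Repeated sequence bears on where reads can be placed, and how reads with several possible places were treated is not given in the sources used here. Of all positions, 29.9% of the first cluster and 21.7% of the second began a 32-base stretch found more than once in the chromosome sequences, against 12.3% on the rest of chromosome 9. Soft-masked repeats covered 55.9% of the first cluster, 44.1% of the second and 32% of the chromosome. G and C made up 38.0% and 37.7% of the clusters and 42.7% of the chromosome. The part of repeats and base composition in the low counts was not tested. Within 1 kb of the members' outermost starts the repeated share was 8.01%, beside 5.5% at other protein-coding genes of chromosome 9. Of the members, 1 had over 50% repeated positions there, Olfr976 at 56.4%.

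The strongest peak inside the clusters was in the second, at chr9:37932578-37932854. Its summit lay 14162 bp from a start of Olfr878 and 8705 bp from the pseudogene Olfr879-ps1, in intergenic sequence. Its signal was 439, at percentile 97, with 238 in replicate 1 and 199 in replicate 2. Next came the peak 2536 bp from a start of Olfr957, with a signal of 379, of which the replicates had 201 and 179. The second stood at percentile 92.3, so the sparse array still held sites near the top of the genome's range.

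The third in rank lay in an intron of Olfr148, at 39612168, with a signal of 226 and replicate values of 116 and 109. It stood between 2 annotated starts of that gene, 1513 bp downstream of the first and 1376 bp upstream of the second. The peak 6290 bp from Olfr881 had a signal of 147, with 82.9 in replicate 1 and 63.7 in replicate 2. The peak 8710 bp from Olfr922 had a signal of 139.5, with 80.8 and 58.3. These 3 ranked between percentiles 65.3 and 76.8.

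The other 4 were weaker. At Olfr971 the signal was 82.6, with 51.4 in replicate 1 and 32 in replicate 2. The remaining 3 summits lay close together before and after Olfr874, near the proximal end of the cluster. Their signals were 24.9, 21.0 and 32.6, at percentiles 7.23, 2.49 and 17.8. The first of these was the most unequal of the 9 between replicates, with 19.7 in replicate 1 and 7.65 in replicate 2, a log2 ratio of 1.37. Of the 32-base stretches within 50 bp of its summit, 58.6% occurred more than once, and all bases there were soft-masked. It lay 1421 bp from a start of Olfr151, a model annotated as a polymorphic pseudogene and so not among the 129. The next, 6557 bp from Olfr874, had 8.61 and 12.5, a log2 ratio of -0.54, and 18.6% repeated stretches. It held no motif match. These 2 were the only peaks inside the clusters with repeated sequence at the summit.

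All 9 inside peaks had a summit in both replicate lists, as did 3865 of 3967 optimal peaks on the rest of chromosome 9. The optimal list was thresholded for repeatability, so this is largely a matter of selection. The log2 ratio of replicate 1 to replicate 2 was 0.26 in the median (SD 0.52, n = 9 peaks). On the rest of chromosome 9, over 3865 peaks found in both, it was 0.30 (SD 0.47). The inside peaks had signals from 21.0 through a median of 139.5 to 439, and a median percentile of 65.3. On the rest of the chromosome the median signal was 74.1 and the median percentile 49.1. With 9 peaks, 3 of them at the weak end and 2 near the top, the median is loosely fixed.

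**Figure D3:**
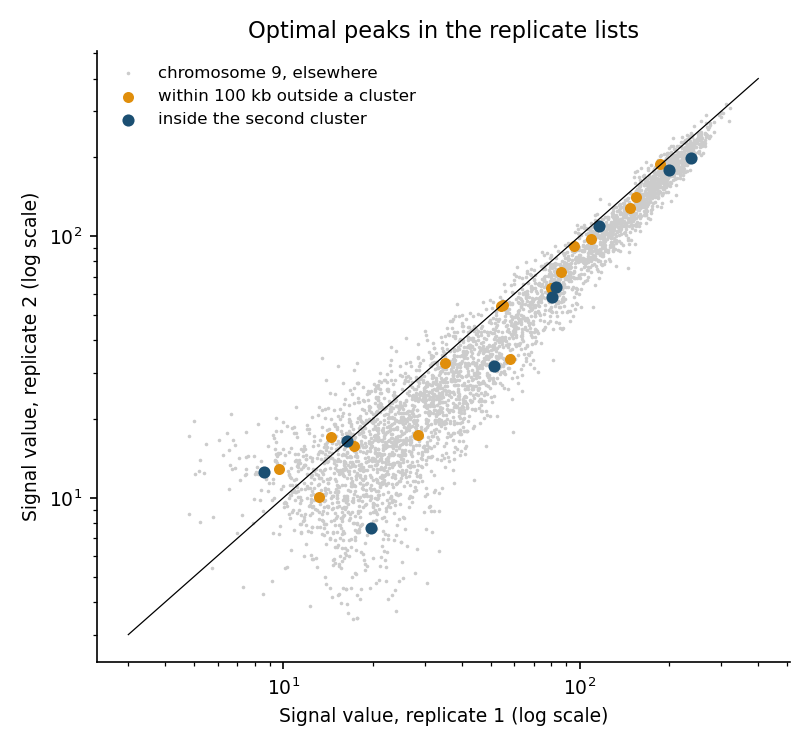
Signal of optimal peaks of chromosome 9 in the list of replicate 1 (x axis) and of replicate 2 (y axis), both on log scales in the deposited units, with the line of equal values. The 9 peaks inside the second cluster (blue) and the 16 at the edges (orange) lie within the cloud of the other peaks (grey), and the lowest blue point, with 19.7 and 7.65, lies farthest below the line.

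A CTCF match stood under 7 of the 9 inside peaks, 77.8% (Wilson 95% interval 45.3 to 93.7, counting error only). Over the rest of chromosome 9 it was 56.3% of 3967 peaks (54.7 to 57.8), within that wide interval. At a looser p of 1e-04 the shares were nearly equal, 77.8% and 77.5%, and at the stricter p of 1e-06 they were 33.3% and 29.8%. The peak by Olfr971 was one of the 2 without a match. Its summit sequence is printed because it is the one member with an optimal peak by a start, 61 bases of the plus strand centred on the summit at chr9:39838608-39838668, which touch no annotated exon.
Olfr971 peak: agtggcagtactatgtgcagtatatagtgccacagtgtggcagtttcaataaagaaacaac
That no match was found says only that the matrix did not reach its threshold in the window.

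Motif directions along the second cluster did not keep to one strand. From the proximal end they read plus, none, plus, minus, plus, plus, plus, minus and none. The nearest peak outside the proximal end, 18812 bp away, pointed plus, into the cluster. The other 3 matches at that edge, among them the strongest peak there and one 20845 bp outside, pointed minus, away from the cluster. At the distal end the nearest peak had no match, and the 2 matches there, one under the strongest peak, 38148 bp outside, pointed plus, also away. Sequences of the nearest proximal and the strongest distal site are shown for comparison with the inside ones.
Proximal border, plus strand, chr9:37690137-37690156: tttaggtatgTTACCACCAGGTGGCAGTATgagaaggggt
Distal border, plus strand, chr9:40228267-40228286: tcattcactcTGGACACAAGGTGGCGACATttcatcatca
The proximal match had a log2-odds score of 23.9, above the 21.1 of the highest-scoring match inside the cluster, the one by Olfr878.

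The edges, taken as the 100 kb outside each end, held 16 optimal summits in 0.4 Mb, or 40 per Mb, beside 33.9 on the chromosome outside the clusters. These were unevenly placed, with 10 per Mb at the first cluster and 70.0 at the second. All 16 were in both replicate lists, as most optimal peaks of the chromosome were. Their signals ran from 22.7 through a median of 109.0 to 372, and 6 of 16 had a motif match, 37.5% (18.5 to 61.4). The first cluster had 1 peak on each side. The proximal one lay 6562 bp before the cluster and 10764 bp from a start of Olfr24, with a signal of 159 and replicate values of 86.5 and 72.9. The distal one lay 49155 bp after the cluster, with a signal of 187 and replicate values of 95.7 and 91.5. Its summit was 15 bp from a start of 4921534A09Rik and 72 bp from a start of Zfp560, a zinc finger gene. Neither had a motif match at a p of 1e-05, so the first cluster stood between 2 peaks without a called motif, at percentiles 68.4 and 72.1.

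The second cluster had 6 peaks at its proximal edge and 8 at its distal edge. At the proximal edge the strongest was in an intron of Siae, which encodes a sialic acid esterase, with a signal of 296, and 155 and 141 in the replicate lists. The nearest, printed above, had a signal of 208, with 109 and 97.4. At the distal edge the nearest peak stood 2022 bp outside, 160 bp from a start of Zfp202, a zinc finger gene. Its signal was 108, with 54.9 and 54.4. The strongest distal peak had 372, with 186 and 188. Scn3b, which encodes a sodium channel subunit, also carried a peak 15 bp from a start, with a signal of 33.6.

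Summits were placed as follows. Of the 9 inside peaks 7 were intergenic, 1 was intronic and 1 lay within 1 kb of a start. Of the 16 edge peaks, 5 lay within 1 kb of a start, 1 in an exon, 2 in introns and 8 were intergenic. On the rest of chromosome 9, 22.0% lay within 1 kb of a start, 5.14% in exons, 40.5% in introns and 32.3% between genes. Neighbouring peaks are not independent, and with 9 and 16 peaks these shares are coarse.

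The genes, each counted once by its outermost start, were not spread evenly over the stretches between peaks. All 36 genes of the first cluster fell in a single stretch of 1640.3 kb, between the summits at 18744945 and 20385249. It was the longest of 3975 stretches between neighbouring optimal summits on chromosome 9 and ranked 29 of 66953 on the autosomes. It held no assembly gap. The median stretch was 13.1 kb on chromosome 9 and 13.2 kb on the autosomes.

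In the second cluster the stretch from the peak by Olfr881 to the peak by Olfr922 was the longest, at 807 kb. By outermost start it held 33 genes, from Olfr883 to Olfr921. The next, of 703 kb, held 23 genes, from Olfr922 to Olfr44. These ranked 4 and 5 on chromosome 9. The stretch at the distal end, from Olfr972 to Olfr986, was 354 kb long with 14 genes. The one before it, ending at the peak by Olfr971, was 226 kb long with 11. By contrast the 5 stretches up to the peak by Olfr881 measured 20.2, 10.03, 170.0, 66.1 and, at the border, 42.4 kb, and held between 0 and 5 genes. Of these, only the 10.03 kb stretch was shorter than the chromosome median of 13.1 kb. Summits were thus less sparse at the proximal end than in the rest of the array, and most genes lay in the 4 long stretches beyond it.

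Starts of receptor genes were seldom near a peak. Within 1 kb of any annotated start, 1 of 129 members had an optimal summit, 0.775% (0.137 to 4.26), and over all protein-coding genes the share was 43.4%, 9431 of 21755. In the first cluster it was 0 of 36, which allows a share of up to 8.33%, and in the second 1 of 93, or 1.08%. Among the 964 Olfr genes of other chromosomes 9 had one, 0.934%. None of 120 Vmn2r genes, vomeronasal pheromone receptors that are also clustered, had one, which allows up to 2.5%. Of the 1081 other protein-coding genes of chromosome 9, 551 had one, 51.0%. The members' interval includes the share at receptors elsewhere and lies far below the share at their chromosome neighbours. Neighbouring genes are not independent, so these intervals are too narrow.

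The gene with a peak, Olfr971, lies at chr9:39836876-39841281 on the plus strand. Its summit at 39838638 was 798 bp upstream of a start at 39839436 that coincides with the start of its coding part. From the outermost start, at 39836876, it was 1762 bp downstream, so the peak stood between the ends of the gene's noncoding first part. With outermost starts alone no member had a peak, and 35.3% of all protein-coding genes did. In total, 70 of the 129 members had a transcript model that begins at its coding part, and 106 had more than 1 annotated start. In 123 the outermost start lay upstream of the coding part, by a median of 1922 bp.

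Just outside 1 kb came Olfr148 at 1376 bp, Olfr957 at 2536 bp, Olfr986 at 5077 bp, Olfr881 at 6290 bp and Olfr874 at 6557 bp. All of these are in the second cluster, and Olfr986 owes its place to the Zfp202 peak outside. The median distance from a start to the nearest optimal summit was 148 kb over the 129 members, 383 kb in the first cluster and 109 kb in the second. It was 75.3 kb at Olfr genes of other chromosomes, 190.3 kb at Vmn2r genes and 0.924 kb at other protein-coding genes of chromosome 9. The members farthest away were Olfr854 at 817867 bp, Olfr855 at 800738 bp and Olfr853 at 792983 bp, all near the middle of the first cluster. Within 100 kb lay 4 of 36 members of the first cluster, 44 of 93 of the second and 97.2% of the other protein-coding genes of the chromosome.

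**Figure D4:**
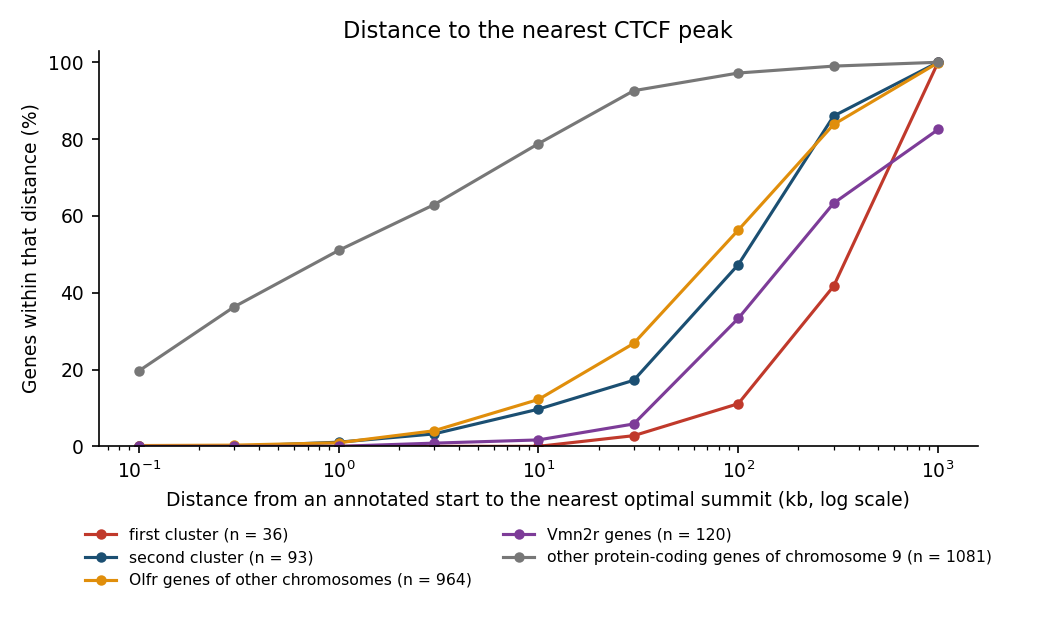
Share of genes (y axis, percent) whose nearest optimal summit lies within a given distance of an annotated start (x axis, kb, log scale), for the 2 clusters, Olfr genes of other chromosomes, Vmn2r genes and other protein-coding genes of chromosome 9. At 100 kb the first cluster is at 11.1%, the second at 47.3% and the other genes of the chromosome at 97.2%.

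The pooled list, with its weaker peaks, placed a summit within 1 kb of a start of 7 of 129 members, 5.43% (2.65 to 10.8), where 71.4% of all protein-coding genes had one. All 7 were in the second cluster: Olfr875, Olfr935, Olfr149, Olfr150, Olfr971, Olfr229 and Olfr976. Apart from Olfr971 their pooled signals ran from 6.85 at Olfr875, 64 bp from its start, to 9.91 at Olfr976. The list of replicate 1 gave 12 members, where 71.3% of all protein-coding genes had a summit, and that of replicate 2 gave 13, where 70.5% had one. Olfr971 and Olfr976 were in both lists, and Olfr976 had signals of 4.99 and 4.42. The share of all protein-coding genes found in both lists is not given here, so this overlap has no background beside it. The first cluster had 0 members in replicate 1 and 3 in replicate 2, Olfr830, Olfr859 and Olfr77.

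The members' starts were poor in G, C and CpG. From 250 bases before to 50 after the outermost start, GC ran from 27.7% to 51.7% with a median of 36.0%, beside a median of 55.0% over all protein-coding genes. The ratio of CpG observed to expected had a median of 0.0974, and none of the 129 passed 0.6, a common bound for CpG islands, where 44.7% of all protein-coding genes did. Among protein-coding genes other than Olfr with a ratio of at most 0.6, 30.4% had an optimal peak within 1 kb, and among those with GC within the members' range 26.4% did. Both subsets were chosen after seeing the data, and neither was matched to the members' median GC or CpG ratio. The members' 0.775% lay below the share in each subset, as did the 0.934% at other Olfr genes. The part of base composition in this was not tested.

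CTCF matches in the sequence were fewer in the clusters, and fewer of them carried a peak. At a p of 1e-05 there were 32 in the first cluster, 20.2 per Mb, 41 in the second, 16.5 per Mb, and 66.2 per Mb on the rest of chromosome 9. An optimal summit within 50 bp was found at 0 of 32, which allows up to 9.38%, at 7 of 41, or 17.1% (8.53 to 31.3), and at 29.6% of 7750 outside (28.6 to 30.6). The outside share lies within the interval of the second cluster and above the limit of the first. Both cover counting error only, and neighbouring matches are not independent. At a p of 1e-06 the first cluster had 2 matches, neither under a peak, and the second 7, of which 3 were, beside 68.2% of 1748 outside. Each threshold passes some sequence by base composition alone, in numbers not estimated here for the clusters or outside. A match without a peak is therefore not taken as an unbound CTCF site, and the sets may hold unlike shares of such matches.

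Many of these matches were copies of repeats. Matches whose covering 32-base stretches occur only once numbered 7 in the first cluster, none under a peak, which allows up to 42.9%. In the second they numbered 18, of which 6 were, 33.3% (16.3 to 56.3). Outside, 41.9% of 4681 were (40.5 to 43.4). This comparison was added after seeing the data. The outside share lay within the second cluster's interval, so that cluster's share could not be told from it. For the first cluster the reading depended on the limit used. The outside 41.9% lay just below the limit of 42.9%, but above 35.4%, the upper end of the Wilson interval for the same matches. With so few unique matches in the first cluster, this was left undecided.

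The 2 strongest matches of the first cluster are shown because neither had an optimal summit within 300 kb.
35203 bp from Olfr836, plus strand, chr9:19085170-19085189: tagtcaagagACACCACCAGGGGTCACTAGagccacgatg
42898 bp from Olfr835, plus strand, chr9:19075624-19075643: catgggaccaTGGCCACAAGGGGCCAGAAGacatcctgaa
They scored 18.2 and 16.9. Some 32-base stretches covering the match by Olfr836 occur more than once, and those covering the match by Olfr835 occur once. The first lay 340234 bp from an optimal summit and 143717 bp from a pooled one. Of the 7 matches under peaks of the second cluster, the 3 by Olfr878, Olfr957 and Olfr922 scored higher, at 21.1, 19.3 and 18.8. The other 4 scored lower, from 12.7 to 15.2.

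**Figure D5:**
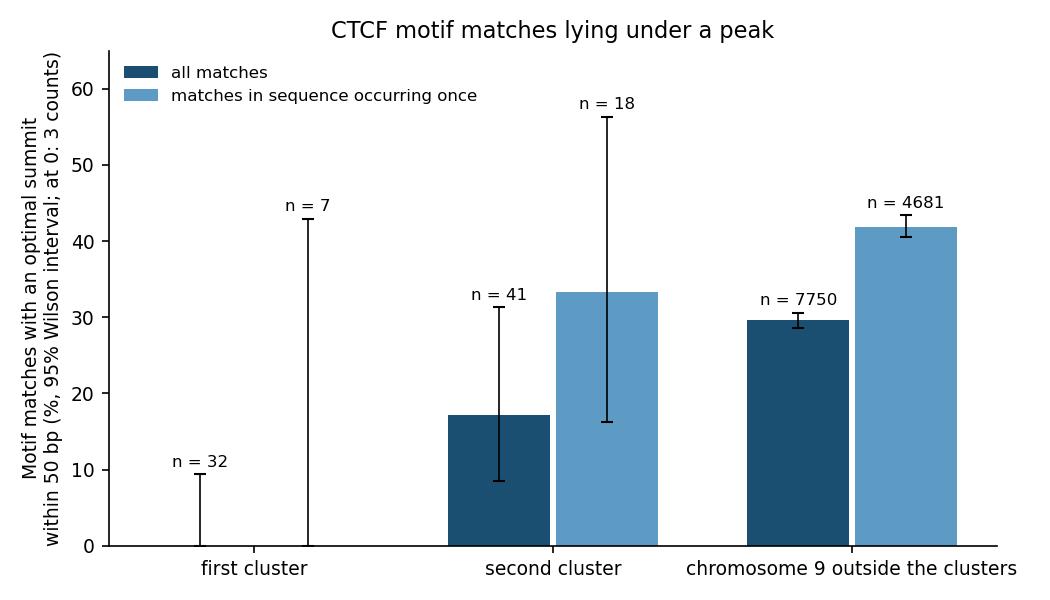
Share of CTCF motif matches (p of 1e-05) with an optimal summit within 50 bp, in percent with Wilson 95% intervals, or the limit of 3 counts where the share is 0, for all matches (dark) and for matches in sequence that occurs once (light). The first cluster is at 0 of 32 and 0 of 7, the second at 17.1% and 33.3%, and chromosome 9 outside the clusters at 29.6% and 41.9%.

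The few genes of other families inside the clusters lay at widely differing distances from optimal summits. Zfp317 in the first cluster was 744025 bp from the nearest, the farthest of the 1081 other protein-coding genes of chromosome 9. A pooled peak with a signal of 8.37 lay 13 bp from its start, and was listed in replicate 1 at 6.9 and not in replicate 2. In the second cluster Vwa5a was 69719 bp from an optimal summit, Tmem225 44034 bp and AW551984 7765 bp, the last with a pooled peak of 18.5 at 26 bp. The nearest genes outside were mostly closer: Muc16, a mucin gene, at 4605 bp, Zfp560 at 72 bp, Panx3, a pannexin channel gene, at 11862 bp and Zfp202 at 160 bp. Of these 4, Panx3 alone was farther from a summit than AW551984 inside.

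Genes that serve the receptors, and are not clustered with them, were looked at as a list of 26 transduction, trafficking and regulatory genes of olfactory neurons. Of these 11 had an optimal summit within 1 kb of a start, 42.3%, near the 43.4% of all protein-coding genes. The 8 strongest were Kdm1a, a histone demethylase, with 421, Gnal, the olfactory G protein subunit, with 202, and Pde1c, a phosphodiesterase, with 138, then Lbr, Ldb1, Slc24a4, Ebf2 and Cngb1, from 104 down to 56.3. Kdm1a had 221 in replicate 1 and 201 in replicate 2. No summit was listed within 1 kb at Omp, the olfactory marker protein gene, at Cnga2, a subunit of the transduction channel, or at Lhx2, a receptor regulator.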

How the data were processed

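CTCF ChIP-seq of newborn mouse midbrain (2 replicates of 1 group) was taken as deposited. The authors deposited narrowPeak lists on mm10 with a signal value per peak (column 7), per the deposited text notes. The pooled and replicate lists were called against a control alignment, and the optimal and conservative lists derive from these and 1 further file. The sources used here do not give the caller, aligner, IDR threshold, read depth or signal scale, so precision from depth is unknown.

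Members and lists were chosen with earlier results of these data known. Summits (column 2 plus column 10, made 1-based) were counted inside clusters, in 100 kb edges and within 1 kb of any GENCODE vM21 transcript start. A replicate or pooled summit within 100 bp was taken as the same peak. Location was assigned in the order start within 1 kb, exon, intron, intergenic. A 20 bp matrix was learned from the 2000 strongest optimal peaks of even-numbered chromosomes and tested on simulated data. Repeated 32-mers were counted over the chromosomes of GRCm38.p6, without scaffolds. Of the members, 108 were matched in the RefSeq promoter table, and no promoter of Olfr971 was printed. Named were all clusters, members with a peak within 1 kb and the 5 next nearest, the 5 strongest inside peaks, strongest and nearest edge peaks, ends of long stretches, non-Olfr neighbours, the 8 strongest of the olfactory list and the peaks most unequal between replicates. Other genes and peaks named were chosen after their values were seen. No test between groups was possible. Intervals are Wilson 95%, and limits for a count of 0 are 3 counts of the total. Alternatives were other lists, replicates, edges, windows, joins and motif thresholds. Python 3.11.15, pandas 2.3.3, numpy 2.4.6, scipy 1.17.1, pysam 0.24.0 and matplotlib 3.10.9 were used.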

Additional observations from a re-analysis of the deposited data

How the results depend on the processing

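The first cluster had 0 summits in the conservative list and in each replicate alone cut to an equal number of peaks. It also had 0 among the stronger 50% of optimal peaks and with summits under 500 bp apart counted once. Both of these last outcomes were fixed in advance by the 0 of the optimal list. Joining genes under 250 kb or 1000 kb apart gave the same number of clusters. Inside the clusters there were 9 summits in the optimal list, 8 in the conservative list, 6 in the stronger 50%, and 8 to 9 leaving out a replicate. Of the 8 conservative ones 7 were among the 9, and the other lay in an exon of AW551984, with a signal of 20.8. At the edges the 16 summits numbered 10 in the stronger 50%, 9 with edges of 50 kb, 33 with edges of 200 kb and 15 to 16 leaving out a replicate. The 1 member with a peak by a start became 0 within 500 bp or with outermost starts and 3 within 5 kb, where 35.8%, 35.3% and 61.3% of all protein-coding genes had one. The median percentile of the inside peaks, 65.3, was 64.3 in the conservative list, 43.4 among the stronger 50% of peaks ranked within itself, and 65.2 to 66.2 leaving out a replicate. The share of inside peaks with a motif, 77.8%, was the same at a p of 1e-04 and 33.3% at a p of 1e-06. The fewer peaks and narrower windows of these alternatives are part of their construction. No paired analysis was possible because there is 1 group and no result comes from a test. Depth is unknown, which limits any reading of a missing peak.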

Other observations

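Weak peaks of the pooled list that were not in the optimal list numbered 5 in the first cluster and 60 in the second, and those named here were chosen after their values were seen. The strongest in the first cluster, at chr9:20314103-20314412, had a signal of 9.99 and lay 625 bp from a pseudogene start, Gm45815. It was in the list of replicate 2, at 5.91, and not in that of replicate 1. The strongest in the second, at chr9:38954109-38954418, had 27.8, with 18.8 in replicate 1 and 8.91 in replicate 2, and held a CTCF match. It lay within the 703 kb stretch between the optimal peaks by Olfr922 and Olfr957. Another, 1485 bp from a start of Olfr984, had 18.8, with 11.4 and 6.42, and held a match at a p of 1e-06.

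Repeat copies made up part of the motif count. In the first cluster a match within a masked repeat occurred at chr9:19905563-19905582 on the plus strand, and an identical one at chr9:19215312-19215331 on the minus strand. The 32 bases at their centre were found 1158 times in the chromosome sequences, and neither copy had a pooled summit within 200 kb. The sequence is shown as an example of a match that many places in the genome share.
Repeat copy, 11293 bp from Olfr77: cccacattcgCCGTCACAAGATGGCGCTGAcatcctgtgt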
